A study of Mus musculus with 14 samples.

Results

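The antigen receptor loci are the regions of the mouse genome in which the genes of the T cell receptor (TCR) and of immunoglobulin (Ig) are assembled. A window of the ATAC-seq count table was taken as a member when its centre lay in chr14:52400000-54250000 (Tra/Trd), chr6:40850000-41600000 (Trb), chr13:19150000-19400000 (Trg), chr12:113200000-116100000 (Igh), chr6:67500000-70800000 (Igk) or chr16:19000000-19300000 (Igl), in GRCm38. The rule used position alone and no measured value. It took 1136 of the 240778 windows, 593 in the 3 TCR intervals and 543 in the 3 Ig intervals. By locus these were 372 windows in Tra/Trd, 149 in Trb, 72 in Trg, 459 in Igh, 83 in Igk and 1 in Igl.

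Open chromatin of regulatory T (Treg) cells from spleen and lymph nodes was read out by bulk ATAC-seq, in which a transposase cuts accessible DNA, with 1 library per mouse. The study sorted resting and activated Treg cells, and the labels do not say which of these a library holds. All 14 mice carried Foxp3-AID, a Foxp3 allele fused to an auxin-inducible degron that also encodes the ZsGreen reporter and Cre recombinase, and all received 5-ph-IAA, the ligand that starts degradation. On day 3 there were 4 Foxp3-AID ROSA26-TIR1(F74G) and 4 Foxp3-AID ROSA26-WT mice, and on day 7 there were 3 of each. TIR1 is the plant receptor that, bound to the ligand, leads to destruction of the fusion protein, so that Foxp3 protein could be degraded in the TIR1(F74G) mice only. The mice were adults. The paper describes its bulk ATAC-seq on ZsGreen-sorted cells of heterozygous Foxp3-AID/WT mice on day 7, and the genotype labels do not give zygosity. In heterozygous females, by the paper, Treg cells with the wild-type allele are not affected by the ligand and hold immune tone comparable between genotypes. The ROSA26 transgene is driven by the ubiquitous CAG promoter behind a stop cassette that the Cre of Foxp3-expressing cells removes. The cells of TIR1(F74G) mice were therefore sorted with 1 reporter more, mCherry, than those of ROSA26-WT mice. The Foxp3-AID allele was made in hybrid 129/B6 embryonic stem cells and then crossed to C57BL/6, and which strain's antigen receptor loci each mouse carried was not analysed here. In a bulk library a window open in fewer cells and a window less open in each cell cannot be told apart.

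The libraries held 5653289 to 20184487 counts in the table, with a median of 15561000. The 2 shallowest were TIR1(F74G) replicate 1 of day 3, with 5653289 counts, and ROSA26-WT replicate 3 of day 7, with 6348754. Levels are given as CPM, counts scaled to the size of each library with TMM factors, and since all windows span 201 bp they can be compared between genes without a correction for length. The Treg label was checked against markers. All 9 genes of a Treg and CD4 T cell list had windows, among them Il2ra with 36 and Foxp3 with 18. Of 10 B cell markers 8 had windows in the table used here, Ms4a1 not among them, with 40 at Bank1 and 24 at Ebf1. The highest B cell marker window stood at 11.4 CPM, at Cd79a, against 8.92 CPM at Foxp3 and 21.0 CPM at Il2ra. Of 5 myeloid markers Itgam had 15 windows and Cd14 had 6, while Csf1r, Lyz2 and Adgre1 had none. A gene was given every window in it or within 2 kb, and whether a window belongs to a neighbouring gene was not checked. Having a window does not by itself separate these cell types.

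Antigen receptor genes are built from separate V, D, J and C segments. Developing lymphocytes join 1 segment of each kind by V(D)J recombination, in which the RAG recombinase cuts at recombination signal sequences beside the segments, and the DNA between joined segments is usually lost from that chromosome. In T cells of the alpha beta lineage, to which Treg cells belong, the joined Tra and Trb genes are transcribed from the promoter of the chosen V segment under the control of enhancers near the C segments. Igh, Igk and Igl are completed and expressed in B cells.

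The sequences below are the last 30 bases of V segment transcripts, 5′ to 3′, for the V segments with the highest windows, 6 of Igh, 3 of Tra/Trd and 3 of Trb, with TGTGC in capitals where it occurs, the letters that begin with the codon TGT of the conserved cysteine. They are shown because the Igh windows lie at this end of the segment and the TCR windows do not. They were read by segment name from the GENCODE vM39 transcripts, and the recombination signal sequence that follows each of them in the genome is not shown.
Ighv1-54: gaggactctgcggtctatttcTGTGCaaga
Ighv1-74: gaggactctgcggtctattacTGTGCaata
Ighv1-47: gatgactctgctgtttattacTGTGCaagg
Ighv14-2: gaggacactgccgtctattacTGTGCtaga
Ighv1-81: gaggactctgcggtctatttcTGTGCaaga
Ighv1-82: gaggactctgcggtctacttcTGTGCaaga
Trav11n: acactgccacctacatctgtgtggtgggcg
Trav13-5: actcaggcacttatttctgtgttctgagta
Trav10: attcagccatctacttcTGTGCagcaagca
Trbv12-1: tctgctatgtacttcTGTGCcagctctctc
Trbv12-2: tctgccgtgtacttcTGTGCcagctctctc
Trbv31: ctctggcttctacctcTGTGCctggagtct
The ends of Trav11n and Trav13-5 do not hold these letters. The 6 Igh ends differed from each other at 0 to 6 of the 30 bases, Ighv1-54 and Ighv1-81 being identical there. Over their last 290 bases, compared from the 3′ end without gaps, the 6 were 75.2% to 89.3% identical. The letters TGTGC stood in the last 30 bases of 66 of 81 Igh V segments with a window within 1 kb (81.5%), of 57 of 102 without one (55.9%), of 104 of 136 Tra/Trd V segments (76.5%) and of 26 of 35 Trb V segments (74.3%). This strand alone was searched, and a match is a description of the letters only.

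Windows were not spread evenly over the loci. The table held 201 windows per Mb in Tra/Trd, 199 in Trb, 288 in Trg and 158 in Igh, but 25.2 in Igk and 3.33 in Igl. Together the TCR intervals held 208 windows per Mb and the Ig intervals 83.5. Neither difference has a test, since windows of 1 locus share all libraries.

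Most of these windows were low. The median level was 1.53 CPM in Tra/Trd, 2.21 in Trb, 1.58 in Trg, 1.40 in Igh and 1.10 in Igk, against 1.80 over all windows of the table. Above 10 CPM stood 26 TCR windows (4.38%) and 10 Ig windows (1.84%), while 8.91% of all windows did. Trb came nearest to the rest of the table, with 16 of its 149 windows above 10 CPM (10.7%). Many windows overlap, and the 1136 fell into 416 runs of overlapping windows in the TCR loci and 375 in the Ig loci.

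**Figure D1:**
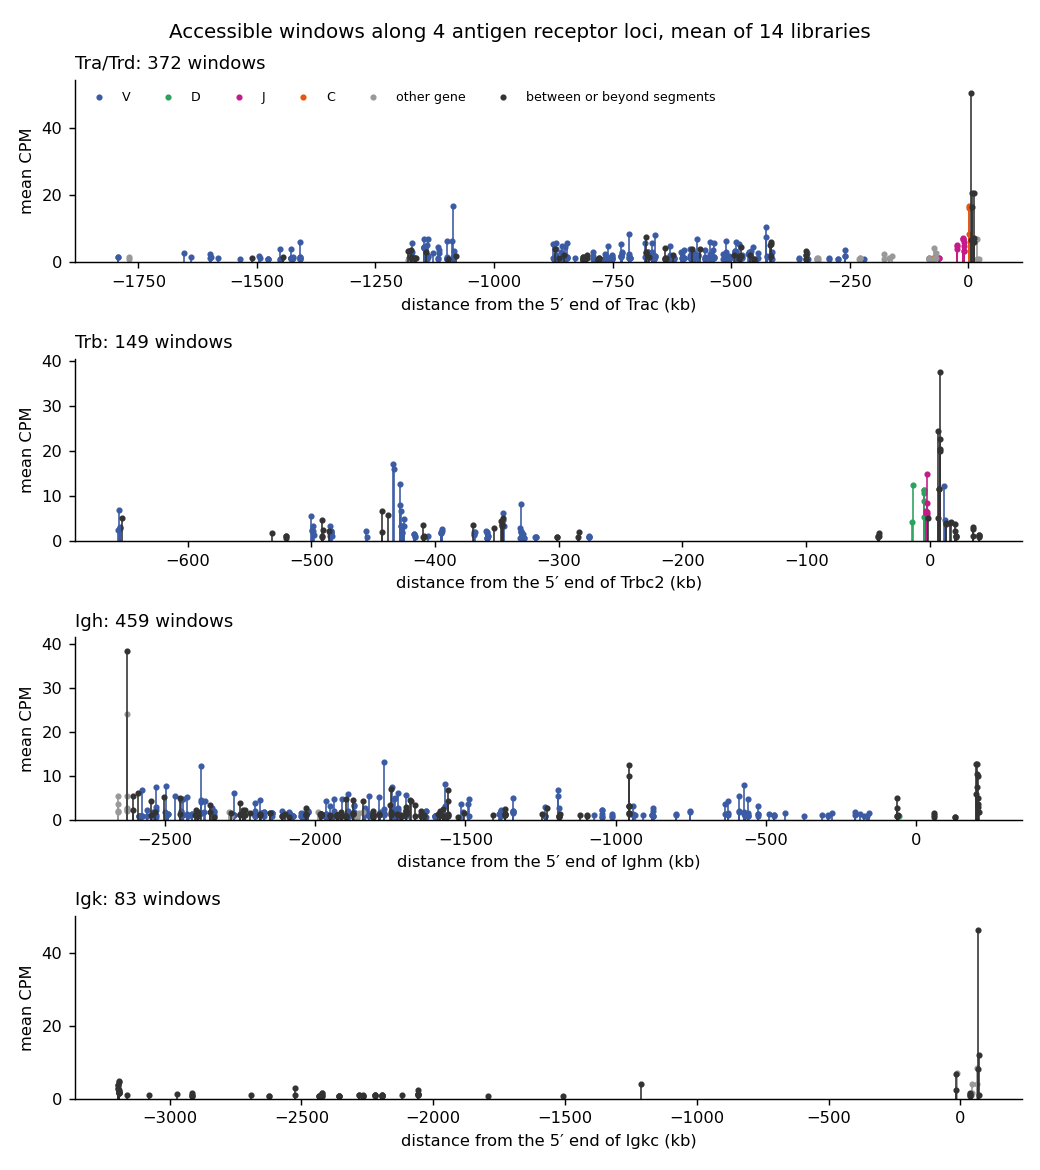
Mean CPM over the 14 libraries (vertical axis) of each window against its distance in kb from the 5′ end of the named C segment (horizontal axis), coloured by the nearest segment within 1 kb. The highest stems of Tra/Trd and Trb stand just past Trac and Trbc2, those of Igh and Igk stand at genes outside the segments, and the long Igk V region is nearly empty.

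The highest windows of Tra/Trd and Trb lay where their enhancers are known to lie, as the plot of windows along the loci shows. The Tra enhancer lies past the 3′ end of Trac, and the highest Tra/Trd window, chr14:54227493-54227694, lay 3396 bp past that gene. In ROSA26-WT mice it measured 51.7, 47.6, 57.2 and 61.0 CPM on day 3 and 55.6, 54.5 and 47.4 on day 7. In TIR1(F74G) mice it measured 47.7, 48.0, 42.9 and 41.7 CPM on day 3 and 48.0, 48.7 and 53.1 on day 7. The groups overlapped on both days, by 47.6 against 48.0 CPM on day 3, and the log2 fold change of that day was -0.27 (SE 0.11, adjusted p = 0.579 by edgeR's quasi-likelihood test).

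The Trb enhancer lies between Trbc2 and the inverted Trbv31. That stretch of 9.51 kb held 8 windows with a median of 20.2 CPM, the highest being chr6:41554384-41554585 at 37.5 CPM. Its summed level ranged from 135 to 171 CPM over the 14 mice, and the genotypes overlapped on both days. The stretch from Trac to the end of the interval held 10 windows that summed to 117 to 160.4 CPM. On day 3 its sum was 143 ± 12.1 CPM (SD, n = 4) in ROSA26-WT and 125 ± 6.32 CPM (SD, n = 4) in TIR1(F74G) mice, and the groups overlapped.

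The corresponding stretches of the Ig loci were nearly closed. The intronic enhancer of Igh lies between the Ighj segments and Ighm, and those 5.78 kb held no window of the table used here. The intronic enhancer of Igk lies between the Igkj segments and Igkc, and those 4.19 kb held none either. The 167 kb of Igh constant genes from Igha to Ighm held 5 windows, none above 1.53 CPM. The windows of the table come from called peaks, and the smallest mean count of any window in it was 10.1. A stretch without a window may lack a called peak or hold one of lower count left out of the table. It is not a measured 0.

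Igh windows past its last constant gene were an exception. The 3′ regulatory region and a group of CTCF sites are known to lie beyond Igha, and the 56.2 kb from Igha to the start of the interval held 10 windows with a median of 6.71 CPM. The highest, chr12:113222093-113222294, stood at 12.8 CPM. Their sums ranged from 62.8 to 80.9 CPM over the mice, and the genotypes overlapped on both days.

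The highest windows of 3 intervals belonged to flanking genes and not to the receptor loci. In Trg it was chr13:19395715-19395916, 2 bp from Stard3nl, at 52.3 CPM. In Igh it was chr12:116047561-116047762, 52 bp from Zfp386, at 38.5 CPM. In Igk it was chr6:70792089-70792290, 14 bp from Rpia, at 46.4 CPM. The only Igl window, chr16:19003020-19003221, lay 58632 bp from the nearest segment, Iglc1, and stood at 1.11 CPM, with 0.360 to 1.86 CPM in the 14 mice. Within the spans from the first to the last annotated segment lay 360 Tra/Trd, 129 Trb, 39 Trg, 431 Igh and 57 Igk windows and no Igl window.

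V segments, which encode most of the variable domain, accounted for 350 of the 593 TCR windows and 278 of the 543 Ig windows when a window was given to the nearest segment within 1 kb. In Igh, 69 of 120 functional V segments (57.5%) and 12 of 63 V pseudogenes (19.0%) had a window within 1 kb. In Tra/Trd these were 64 of 119 functional V segments (53.8%) and 7 of 17 pseudogenes (41.2%). Trb had windows at 17 of 22 functional V segments (77.3%) and 2 of 13 pseudogenes (15.4%), and Trg at 5 of 7. In Igk, 1 of 102 functional V segments had a window, Igkv2-109, at 1.62 CPM, and none of 60 pseudogenes did.

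The windows sat at opposite ends of TCR and Igh V segments. For each V segment with a window, the highest window within 1 kb was taken and its centre placed along the direction of transcription. In TCR loci it lay upstream of the annotated 5′ end in 84 of 95 segments (88.4%), where V promoters are known to lie, at a median of -145.5 bp from that end. In Igh it lay within 150 bp of the annotated 3′ end in 70 of 81 segments (86.4%), where the recombination signal sequence lies, at a median of 27.5 bp past that end. The reverse places held 10 of 95 TCR segments (10.5%) near the 3′ end and 7 of 81 Igh segments (8.64%) upstream of the 5′ end.

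**Figure D2:**
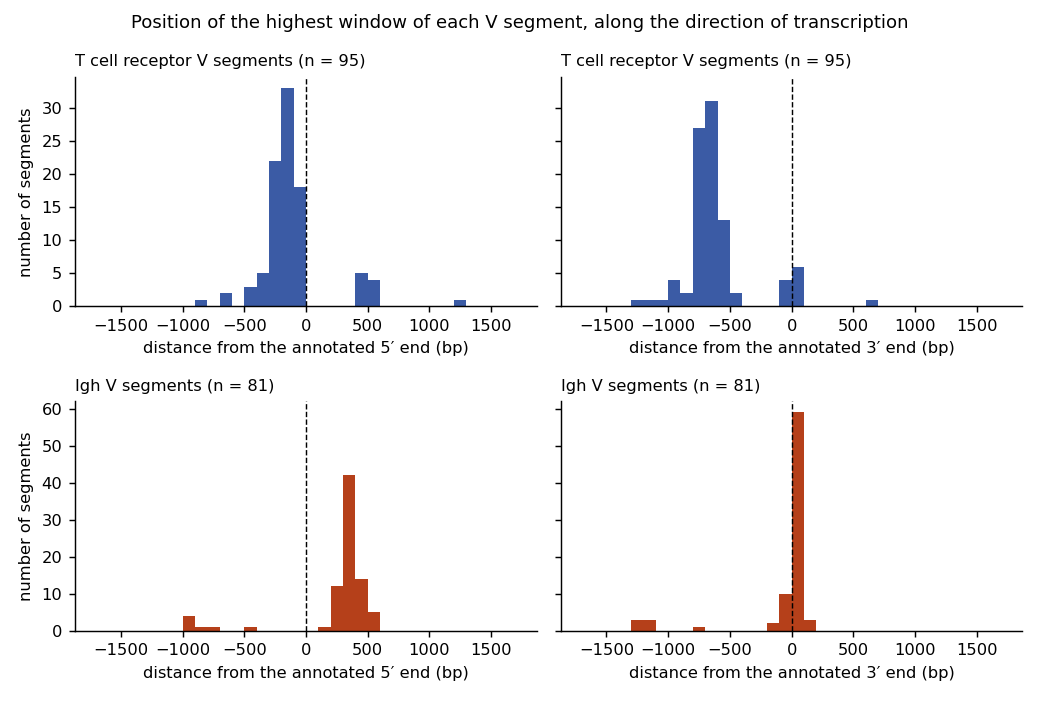
Number of V segments (vertical axis) by the distance in bp of the centre of their highest window from the annotated 5′ end (left) and 3′ end (right), negative being upstream, for 95 TCR segments (top) and 81 Igh segments (bottom). The TCR bars peak just before the 5′ end and the Igh bars at the 3′ end.

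The split between the ends held in each TCR locus, with 63 of 71 segments upstream in Tra/Trd, 16 of 19 in Trb and 5 of 5 in Trg. The direction was the same when every window was counted. Over all windows near V segments, 171 of 350 in TCR loci lay upstream (48.9%) and 44 downstream (12.6%), while in the Ig loci 80 of 278 lay upstream (28.8%) and 143 downstream (51.4%). The annotation limits the Igh count. The annotated Igh segments had a median length of 294 bp, against 499 bp in the TCR loci, and at a shorter segment without its leader exon the annotated 5′ end lies inside the gene. The median Igh window lay 336.5 bp past the annotated 5′ end. No test was made, since neighbouring segments share their libraries and the peak caller.

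Among TCR V segments the highest promoter-side windows belonged to Trbv12-1 and Trav11n. The window chr6:41112985-41113186, 482 bp before Trbv12-1, measured 15.9, 17.3, 19.1 and 20.2 CPM in ROSA26-WT mice on day 3 and 18.3, 19.3 and 16.0 on day 7. In TIR1(F74G) mice it measured 18.3, 15.9, 13.4 and 14.2 CPM on day 3 and 16.5, 16.5 and 16.6 on day 7. The groups overlapped on both days. Trav11n, a V segment in RefSeq and a pseudogene in GENCODE, had the window chr14:53134856-53135057 at 16.8 CPM. Trbv31, which lies past the C segments in inverted orientation, had its highest window, chr6:41558354-41558555, also before its own 5′ end, at 12.3 CPM.

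Among Igh V segments the highest windows belonged to Ighv1-54 and Ighv1-74, whose ends are printed above. The window chr12:115193579-115193780, centred 4.5 bp before the end of Ighv1-54, measured 12.1, 16.1, 13.0 and 14.6 CPM in ROSA26-WT mice on day 3 and 12.3, 12.7 and 14.7 on day 7. In TIR1(F74G) mice it measured 12.8, 9.34, 14.7 and 12.9 CPM on day 3 and 10.3, 14.7 and 13.0 on day 7. No group stood apart. At Ighv1-74 the window chr12:115802545-115802746 was centred 44.5 bp past the segment, at 12.2 CPM.

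Windows were found in some Igh V families and not in others. Ighv1, the largest family, had windows at 48 of 92 segments with a median of 4.25 CPM for the highest window, and 39 of the 48 lay near the 3′ end. Ighv8 had windows at 8 of 16 segments and Ighv5 at 6 of 21, with medians of 2.12 and 1.53 CPM. Ighv3 had a window at 0 of 8 segments. In Tra/Trd the families Trav10 and Trav16 had windows at 3 of 3 segments each, while Trav12 had them at 3 of 10 and Trav4 at 2 of 9. Copies of Tra/Trd V segments are a limit here, since 42 of 136 share their last 200 bases exactly with another segment, against 2 of 183 in Igh. By name, 74 of the 136 are marked as duplicate copies, and 93 of the 259 Tra/Trd V windows lay at them. The bases upstream of the segments, where most of the highest Tra/Trd windows lay, were not compared. How reads that match several copies were counted is not given in the sources used here, so a level at a copied segment is uncertain.

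D and J segments, which complete the variable domain, were open in Trb and nearly closed in the Ig loci. Both Trb D segments had windows, and they are printed here whole, from GENCODE vM39, with runs of at least 3 G in capitals, because both had windows above 10 CPM beside them.
Trbd1: GGGacaGGGGGc
Trbd2: GGGactGGGGGGGc
The highest window before Trbd1, chr6:41532770-41532971, stood at 12.4 CPM and lay where a D segment promoter is known. Between Trbc1 and Trbd2, 5 windows stood at a median of 10.7 CPM, the highest being chr6:41541785-41541986 at 11.3 CPM. Of the functional Trb J segments 7 of 13 had a window within 1 kb, and a window could count for several segments. For Trbj1-1 it was the window before Trbd1 named above. In Trb 6 windows had a J segment as the nearest within 1 kb, and the highest, chr6:41544620-41544821, lay 864 bp past Trbj2-7 at 14.9 CPM.

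Elsewhere J and D segments had few windows. In Tra/Trd, 7 of 53 functional J segments had a window within 1 kb, the highest 7.12 CPM beside Traj8, a pseudogene, and Traj9, and neither Trd D segment did. In Igh 1 of 10 functional D segments had one and none of 4 J segments did. None of 4 Trg and 5 Igk J segments had one.

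C segments encode the constant part of the chain. Trac held 3 windows, the highest chr14:54222445-54222646 at 16.6 CPM, which summed to 34.2 to 50.4 CPM over the mice. The region of Trdc and 2 kb on either side held 6 windows, at most 4.36 CPM. Trbc1 and Trbc2 had 2 windows each within 2 kb, and neither had one within 1 kb. No window lay within 2 kb of the 4 Trg constant genes, of Igkc or of the 4 Igl constant genes, and of 8 Igh constant genes only Ighg3 had any, 3 windows of at most 1.53 CPM.

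The long Igk V region was nearly empty. Its 3149 kb held 54 windows, none above 4.12 CPM. Between the last V and the first J segment, where the Sis and Cer elements are known to lie, 3 windows lay, the highest, chr6:70714341-70714542, at 6.98 CPM. It measured 4.50, 6.75, 7.51 and 6.90 CPM in ROSA26-WT mice of day 3, 10.8, 5.53, 8.27 and 6.68 in TIR1(F74G) mice of day 3, 7.62, 6.11 and 5.55 in ROSA26-WT mice of day 7 and 7.17, 8.17 and 6.12 in TIR1(F74G) mice of day 7. The groups overlapped on both days.

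Mice of 1 group differed by about as much at these windows as elsewhere. The SD of log2(CPM + 0.5) within groups had a median of 0.300 over the 1136 windows and 0.284 over all windows of the table. It was 0.290 in TCR and 0.304 in Ig loci. Among loci of more than 1 window it was highest in Igk with 0.326, and the only Igl window had 0.420. The median was lower at D, J and C segments with 0.230, 0.219 and 0.230, whose windows are also higher. The largest SD among windows of at least 1 CPM was 0.681, at chr13:19300581-19300782 in Trg. That window measured 0.519, 0.992, 1.23 and 1.83 CPM in ROSA26-WT and 0.180, 2.63, 2.31 and 2.25 CPM in TIR1(F74G) mice of day 3, the lowest value belonging to the shallowest library.

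One mouse stood apart in Tra/Trd. The 372 windows summed to 974, 1038 and 1216 CPM in ROSA26-WT mice of day 7, and replicate 3 was above every other mouse, the rest lying between 890.3 and 1042. In bins of 100 kb with at least 10 windows, this mouse was 0.36 to 0.61 above the mean of the other 13 on the log2 scale in 9 bins. It was not above that mean in 3 other bins, with -0.0044 in the bin centred 1171 kb before Trac, -0.20 in that 271 kb before Trac and -0.06 in that 29.5 kb past its start, which holds Trac and the enhancer. It is 1 of the 2 shallowest libraries, and the other, TIR1(F74G) replicate 1 of day 3, lay between -0.26 and 0.11 in these 12 bins. The part of depth in this was not tested, and counts and fold changes of day 7 in Tra/Trd are also given without this mouse where it moved them.

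**Figure D3:**
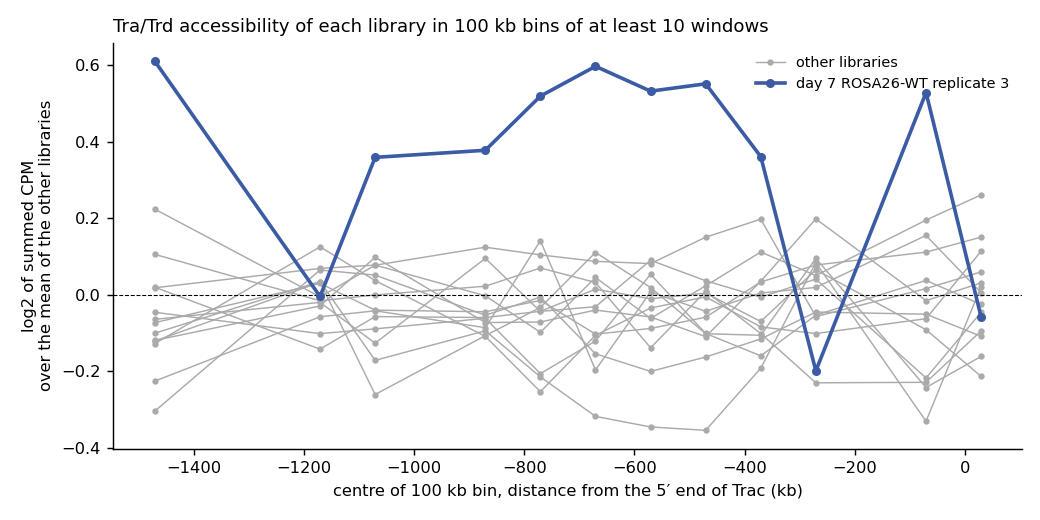
Log2 ratio of the summed CPM of each library to the mean of the other 13 (vertical axis) in 100 kb bins along Tra/Trd, placed by the distance of the bin centre from the 5′ end of Trac in kb (horizontal axis). The day 7 ROSA26-WT replicate 3 runs above all others across most V segment bins and joins them at 3 bins.

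The first question was whether accessibility of these loci differed between genotypes on day 7. By edgeR's quasi-likelihood test 0 of the 1126 members tested passed an adjusted p of 0.05, against 0.00463% of the 237811 windows tested, and the smallest adjusted p was 0.599. DESeq2 called 0 members too. At an unadjusted p under 0.05 there were 62 members, 17 higher and 45 lower in TIR1(F74G) mice. These are 5.51% of the members, against 5.95% of all windows (2.75% higher and 3.2% lower). Values of the 2 genotypes did not overlap at 122 members, 54 higher and 68 lower (10.8%), against 11.8% of all windows (5.81% higher and 6.02% lower).

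On day 7 the direction at Tra/Trd windows depended on 1 mouse. The log2 fold change was above 0 at 228 of 590 TCR windows (38.6%), with a median of -0.08, and at 300 of 536 Ig windows (56.0%), with a median of 0.04, against 49% of all windows. By locus it was above 0 at 137 of 370 windows in Tra/Trd, 60 of 148 in Trb, 31 of 72 in Trg, 252 of 455 in Igh and 47 of 80 in Igk. Without ROSA26-WT replicate 3, an alternative chosen after seeing the data, it was above 0 at 189 of 371 Tra/Trd windows (50.9%) and 287 of 591 TCR windows (48.6%). The lower share in Tra/Trd was thus not seen without this mouse. Counts without it are not given for Trb and Trg alone, and the promoter-side windows described below kept a lower share. No window behind these counts passed the adjusted threshold, and windows of 1 locus are not independent of each other.

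Promoter-side windows of V segments in TCR loci were lower in TIR1(F74G) mice of day 7 as a sum, by less without that mouse. The 84 such windows summed to 365, 378 and 433 CPM in ROSA26-WT mice of day 7 and to 335, 349 and 348 CPM in TIR1(F74G) mice. The groups did not overlap, also without ROSA26-WT replicate 3, and the log2 ratio of the means was -0.19, or -0.11 without that replicate. The fold change was above 0 at 20 of the 84 windows with a median of -0.14, and at 28 of 84 without that replicate. Windows between segments leaned the same way with all mice, above 0 at 22 of 64 in Tra/Trd with a median of -0.12 and at 20 of 56 in Trb with a median of -0.10. Counts without that replicate are not given for windows between segments. On day 3 the promoter-side windows summed to 301, 331, 353 and 379 CPM in ROSA26-WT and to 375.5, 327, 342 and 340.5 CPM in TIR1(F74G) mice, which overlapped, with 44 of 84 above 0. The 70 windows at the 3′ end of Igh V segments summed to 225 to 303 CPM over the 14 mice, overlapped between genotypes on both days, and lay above 0 at 33 of 70 on day 7.

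Of the single windows lower in TIR1(F74G) mice on day 7, the smallest p-values belonged to 3 in Tra/Trd, none of which passed. The window chr14:53349198-53349399, 1792 bp from Trav16n, measured 4.46, 4.54 and 8.40 CPM in ROSA26-WT and 3.42, 3.28 and 3.09 in TIR1(F74G) mice. The groups did not overlap, the highest value being that of ROSA26-WT replicate 3, and the log2 fold change was -0.72 (SE 0.21, adjusted p = 0.599, edgeR), or -0.46 without that replicate. At Trav12-1 the window chr14:53538482-53538683 measured 1.36, 2.21 and 2.10 against 0.963, 0.656 and 0.860 CPM, a log2 fold change of -1.16 (SE 0.34, adjusted p = 0.609, edgeR), or -1.10 without it. At Trav15-2-dv6-2, a V segment shared by the alpha and delta chains, the window chr14:53649226-53649427 measured 7.11, 7.79 and 11.8 against 5.13, 5.60 and 6.27 CPM, a log2 fold change of -0.58 (SE 0.17, adjusted p = 0.615, edgeR), or -0.39 without it.

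In the other direction the smallest p-values of day 7 belonged to windows at Ighv1-72, at Trav7-4 and between Trbc2 and Trbv31. At Ighv1-72 the window chr12:115758188-115758389 measured 0.646, 1.05 and 1.05 CPM in ROSA26-WT and 1.23, 1.79 and 2.33 in TIR1(F74G) mice (log2 fold change 0.99, SE 0.35, adjusted p = 0.718, edgeR). At Trav7-4 chr14:53461433-53461634 measured 0.517, 0.989 and 1.05 against 1.66, 1.73 and 1.42 CPM (log2 fold change 0.96, SE 0.36, adjusted p = 0.758, edgeR). The window chr6:41552977-41553178, in the stretch of the Trb enhancer, measured 4.78, 5.35 and 3.90 against 6.68, 5.96 and 6.48 CPM (log2 fold change 0.41, SE 0.17, adjusted p = 0.810, edgeR). None of the 3 overlapped between genotypes on that day.

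On day 3 no single window passed either. By edgeR's quasi-likelihood test 0 of 1115 members passed, as did 0% of the 235515 windows tested, the smallest adjusted p among members was 0.440, and DESeq2 called 0 members. At an unadjusted p under 0.05 there were 82 members (7.35%), 72 higher and 10 lower, against 7.55% of all windows (3.93% higher and 3.62% lower). The 2 genotypes did not overlap at 37 members, 32 higher and 5 lower, against 4.1% of all windows (2% higher and 2.11% lower). Of the 37, Ig loci held 22 of the higher and 1 of the lower.

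Ig windows leaned higher in TIR1(F74G) mice on day 3. The log2 fold change was above 0 at 390 of 534 Ig windows (73.0%), with a median of 0.19, at 328 of 581 TCR windows (56.5%), with a median of 0.04, and at 51.2% of all windows. Igk was the most one-sided, with 73 of 82 windows above 0 and a median of 0.43, and Igh had 316 of 451 and a median of 0.14. This day also showed a dependence on level in the whole table, where 64.1% of windows below 1 CPM were above 0, 59.5% from 1 to 2 CPM, 48.9% from 2 to 5 and 27.4% from 5 CPM on. At the same levels Igk had 94.3%, 88.9%, 85.7% and 66.7%, and Igh had 65.4%, 74.1%, 72.8% and 53.8%.

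**Figure D4:**
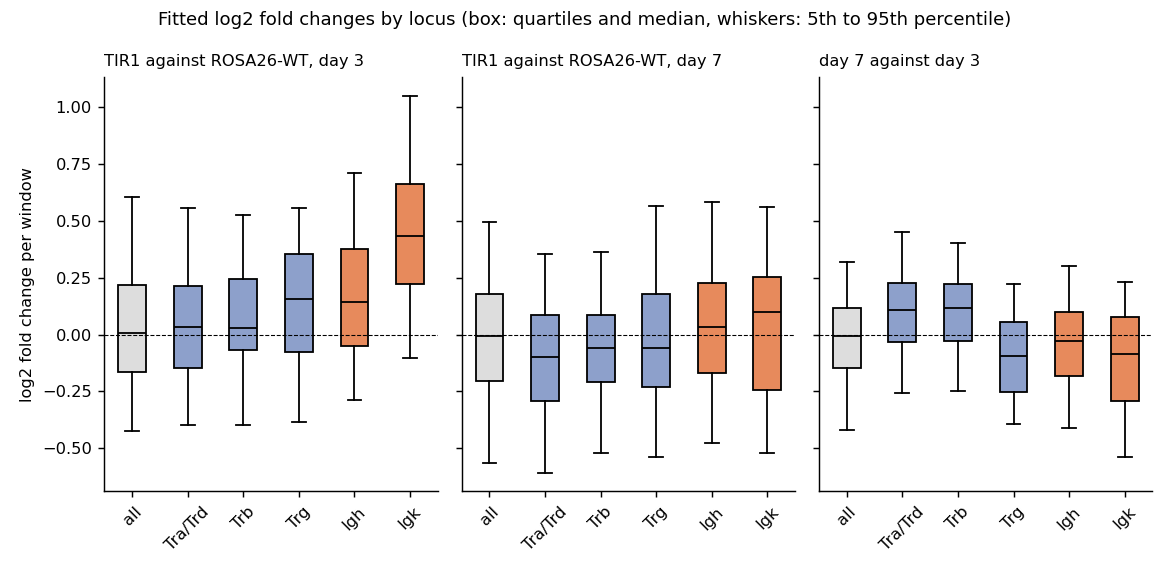
Fitted log2 fold change per window (vertical axis) over all windows and in 5 loci, for the genotypes on day 3 and day 7 and for day 7 against day 3, with boxes from the lower to the upper quartile, a line at the median and whiskers from the 5th to the 95th percentile. The Igk box of day 3 lies wholly above 0, with a median of 0.43, and the other boxes include 0.

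The summed Igk level separated the genotypes on day 3. It was 171, 185, 197 and 197 CPM in ROSA26-WT and 208, 208, 241 and 216 CPM in TIR1(F74G) mice, with no overlap and a log2 ratio of the means of 0.22. Within the span of the Igk segments the sums were 63.6 to 70.7 CPM against 79.1 to 112 CPM, a log2 ratio of 0.45. The stretch of Igk V segments, with 54 windows, summed to 48.0 to 59.6 CPM against 58.3 to 93.7 CPM. There the groups overlapped, with a log2 ratio of 0.50. The highest sums belonged to TIR1(F74G) replicates 3 and 4, whose mouse names, like that of ROSA26-WT replicate 4 with 197 CPM, begin with another letter than those of the other mice of that day. What this letter stands for is not given. With the prefix of the name as a term, a count chosen after seeing the data, 73 of 82 Igk windows were again above 0. On day 7 the sums were 197, 208 and 189 CPM in ROSA26-WT and 203.9, 202 and 201 CPM in TIR1(F74G) mice, which overlapped, with a log2 ratio of 0.03.

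B cell and plasma cell markers were set beside these sums. The 93 windows of the B cell list summed to 209 to 224 CPM in ROSA26-WT and 214 to 234 CPM in TIR1(F74G) mice on day 3, which overlapped, and to 222 to 229.9 and 210.2 to 220.3 CPM on day 7, which did not. Of the 10 B cell genes 8 had windows, the highest of 11.4 CPM at Cd79a and 10.5 CPM at Ebf1, while Ms4a1 had none. The plasma cell list, with Tnfrsf17 at no window, summed to 39.2 to 47.6 against 44.9 to 54.2 CPM on day 3, which overlapped, and to 35.1 to 41.9 against 42.9 to 45.4 CPM on day 7, which did not. Sdc1 held 16 of its 19 windows and 36.1 CPM of the mean sum, against 8.11 CPM at Jchain, so that sum is mostly 1 gene. Gamma delta T cell markers summed to 76.3 to 86.3 against 80.9 to 102 CPM on day 3. Over all 14 mice CD8 T cell markers summed to 35.2 to 49.95 CPM, thymocyte markers to 56.6 to 73.2 CPM and myeloid markers to 36.3 to 45.3 CPM, and the Treg and CD4 T cell list to 885.5 to 1074 CPM. No window of these 7 marker lists passed an adjusted p of 0.05 in any of the 5 fits by edgeR. The part of other cells, of mouse names and of the dependence on level in the Igk sums was not tested.

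Single Ig windows of day 3 were low and did not pass. The window chr12:115283693-115283894, in Gm30948 within Igh, measured 0.260, 0.463, 0.615 and 0.177 CPM in ROSA26-WT and 0.899, 1.29, 1.49 and 0.724 in TIR1(F74G) mice, with no overlap (log2 fold change 1.56, SE 0.44, adjusted p = 0.440, edgeR). The Igk window chr6:68461432-68461633 measured 0.519, 0.529, 0.820 and 0.413 against 0.360, 1.18, 2.09 and 1.77 CPM, which overlapped through replicate 1 (log2 fold change 1.33, SE 0.40, adjusted p = 0.464, edgeR). In Trb, a window 994 bp past Trbv12-2, chr6:41120257-41120458, measured 1.39, 0.926, 1.23 and 1.59 against 2.16, 2.31, 2.24 and 2.73 CPM, with no overlap (log2 fold change 0.88, SE 0.27, adjusted p = 0.466, edgeR).

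In the other direction the smallest p-values of day 3 were all in TCR loci. A window before Trav13n-4, chr14:53362169-53362370, measured 2.42, 2.98, 4.58 and 3.42 CPM in ROSA26-WT and 1.44, 2.95, 2.46 and 1.21 in TIR1(F74G) mice (log2 fold change -0.65, SE 0.24, adjusted p = 0.545, edgeR). At Trbv5 chr6:41062544-41062745 measured 1.47, 2.51, 1.98 and 2.36 against 0.540, 1.29, 1.71 and 1.13 CPM (log2 fold change -0.74, SE 0.29, adjusted p = 0.560, edgeR). A window 3974 bp from Trav17, chr14:53802565-53802766, measured 6.67, 4.89, 6.15 and 4.66 against 5.93, 3.59, 4.02 and 3.22 CPM (log2 fold change -0.48, SE 0.19, adjusted p = 0.568, edgeR). All 3 overlapped between genotypes.

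TCR loci were set against Ig loci through the log2 ratio of their sums in each mouse. On day 3 it was 0.55, 0.54, 0.57 and 0.66 in ROSA26-WT and 0.47, 0.52, 0.41 and 0.42 in TIR1(F74G) mice, a mean of 0.58 ± 0.06 (SD, n = 4) against 0.45 ± 0.05 (SD, n = 4), with no overlap. On day 7 it was 0.64, 0.59 and 0.83 against 0.58, 0.53 and 0.60, a mean of 0.69 ± 0.12 (SD, n = 3) against 0.57 ± 0.04 (SD, n = 3), which overlapped. Within the spans of the segments, which leaves out flanking genes such as Rpia, the groups overlapped on both days, with 0.61 to 0.81 against 0.48 to 0.65 on day 3. The sums themselves gave 1753 ± 104 CPM (SD, n = 4) and 1767 ± 39.8 CPM (SD, n = 4) for TCR loci on day 3, and 1171 ± 34.2 and 1291 ± 70.9 CPM for Ig loci. A ratio of sums over chosen loci was given no p-value.

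**Figure D5:**
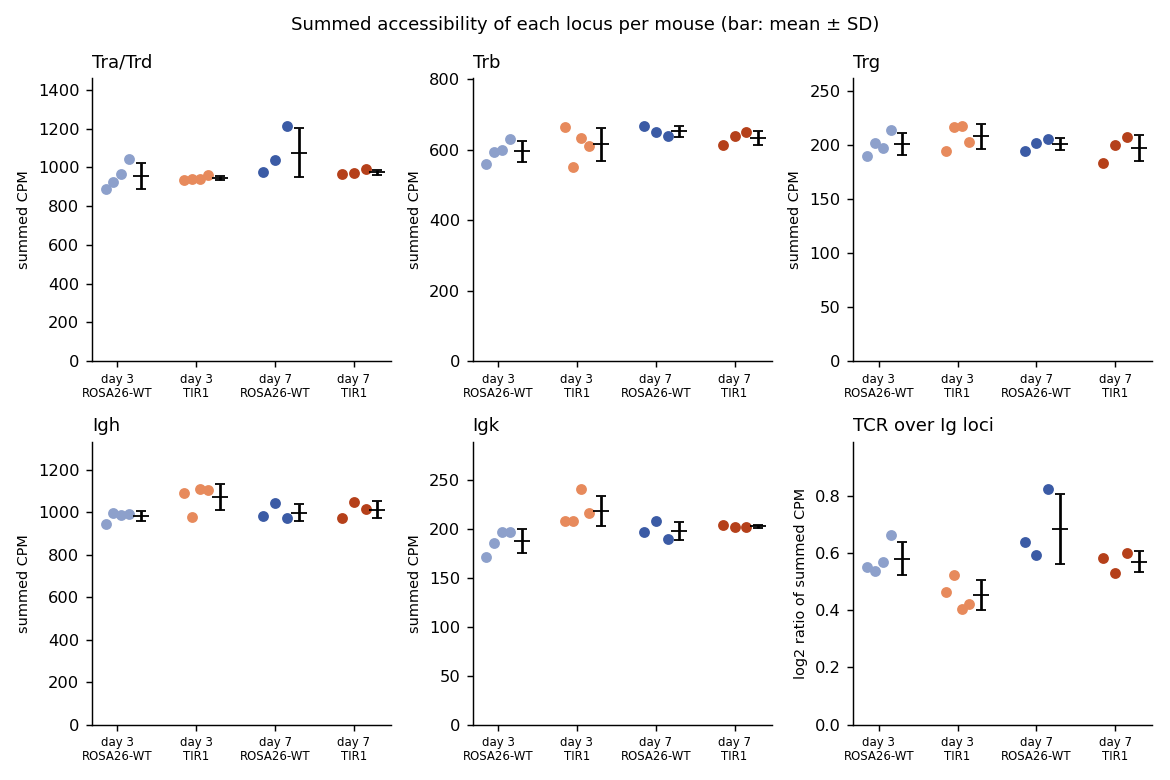
Summed CPM of the windows of 5 loci, and the log2 ratio of the TCR to the Ig sum (vertical axes), in each mouse by day and genotype, with mean ± SD beside the points. On day 3 the genotypes are apart in Igk and in the ratio and overlap in the other loci, and in Tra/Trd a single ROSA26-WT mouse of day 7 stands at 1216 CPM.

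The other sums overlapped between genotypes on both days, as the plot of sums per mouse shows. Trb summed to 553 to 669 CPM and Trg to 184 to 218 CPM over the 14 mice. Igh was 947 to 998 CPM in ROSA26-WT and 980.3 to 1111 CPM in TIR1(F74G) mice on day 3. Within TIR1(F74G) mice replicate 2 was the one that reached into the range of the other genotype.

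With the days fitted together and day as a term, 0 of 1136 members passed by edgeR's quasi-likelihood test, against 0.0112% of the 240778 windows. DESeq2, which gave an adjusted p for only 57 members, called 0 of them. At an unadjusted p under 0.05 there were 74 members (6.51%), 53 higher and 21 lower in TIR1(F74G) mice, against 6.73% of all windows (3.16% higher and 3.57% lower). The smallest adjusted p among members was 0.413.

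Among windows with a fold change above 0 over both days, an overlapping pair in Gm30948 within Igh had log2 fold changes of 1.03 (SE 0.33, adjusted p = 0.489, edgeR) and 0.99 (SE 0.32, adjusted p = 0.515, edgeR). At both the genotypes were apart on day 3 and overlapped on day 7.

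In the other direction the smallest p-values over both days belonged to windows before Trav7d-4, near Trav17 and before Trav11n, none of which passed. The first, chr14:52769524-52769725, had a log2 fold change of -0.49 (SE 0.15, adjusted p = 0.469, edgeR), or -0.39 without ROSA26-WT replicate 3 of day 7, and its day 7 value in ROSA26-WT replicate 3, 7.65 CPM, was the highest of all mice. The window near Trav17, chr14:53802565-53802766, had one of -0.38 (SE 0.14, adjusted p = 0.575, edgeR), and the genotypes overlapped on both days. The window before Trav11n measured 15.8, 18.1, 17.1 and 19.2 CPM in ROSA26-WT and 16.0, 16.3, 13.9 and 15.4 in TIR1(F74G) mice of day 3, and 20.1, 17.1 and 20.2 against 15.6, 13.9 and 16.6 CPM on day 7. Its log2 fold change was -0.25 (SE 0.09, adjusted p = 0.601, edgeR), and the genotypes were apart on day 7 only. The log2 fold change was above 0 at 379 of 543 Ig windows (69.8%) and 272 of 593 TCR windows (45.9%), against 50.7% of all windows. This fit and those of single days share all their samples.

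Whether the genotype difference itself differed between days was tested with an interaction term. By edgeR's quasi-likelihood test 0 of 1136 members passed, as did 0% of all windows, and DESeq2 called 0 members. There were 59 members at an unadjusted p under 0.05 (5.19%), 3 with a higher and 56 with a lower fold change on day 7 than on day 3, against 6.32% of all windows (2.75% higher and 3.57% lower). The smallest adjusted p, 0.532, belonged to chr12:115012823-115013024, 9212 bp from Ighv8-3. It measured 0.779, 1.19, 0.683 and 1.00 CPM in ROSA26-WT and 1.44, 1.39, 1.94 and 2.25 in TIR1(F74G) mice of day 3, and 1.74, 1.80 and 1.65 against 0.481, 1.01 and 1.37 CPM on day 7. The genotypes were apart on both days, in opposite directions, and the difference did not pass the adjusted threshold.

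The last comparison was of day 7 with day 3, with genotype as a term. By edgeR's quasi-likelihood test 0 of 1136 members passed, against 0.00332% of all windows. DESeq2, which gave an adjusted p for 571 members, called 0 of them. At an unadjusted p under 0.05 there were 63 members (5.55%), 41 higher and 22 lower on day 7, against 5.47% of all windows (2.38% higher and 3.1% lower). The log2 fold change was above 0 at 386 of 593 TCR windows (65.1%), and at 355 of 593 without ROSA26-WT replicate 3 of day 7, but at 231 of 543 Ig windows (42.5%), against 48.8% of all windows. It was above 0 at 256 of 372 windows in Tra/Trd and 105 of 149 in Trb.

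Within Trb, the fitted change from day 3 to day 7 had the same sign at all windows of D and J segments, none of which passed. All 7 D and all 6 J windows had a log2 fold change above 0, with medians of 0.28 and 0.21, and 5 and 3 of them an unadjusted p under 0.05, and neighbouring windows among them overlap. The smallest p-value of the loci belonged to chr6:41541415-41541616, 648 bp before Trbd2. It measured 3.98, 4.30, 3.62 and 4.66 CPM in ROSA26-WT and 6.11, 5.79, 5.07 and 4.18 in TIR1(F74G) mice of day 3, and 7.36, 6.34 and 6.60 and 6.26, 5.07 and 6.58 CPM on day 7. The days were apart in ROSA26-WT mice and overlapped in TIR1(F74G) mice, and the log2 fold change was 0.44 (SE 0.13, adjusted p = 0.734, edgeR). At Trbj2-5 chr6:41543401-41543602 measured 5.36 to 7.17 CPM on day 3 and 6.30 to 8.40 on day 7 (log2 fold change 0.38, SE 0.11, adjusted p = 0.745, edgeR). Day of treatment and any handling that went with it cannot be told apart.

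In the other direction 2 windows at Trav16 copies had the smallest p-values. The window before Trav16n, chr14:53350887-53351088, had a log2 fold change of -0.37 (SE 0.14, adjusted p = 0.842, edgeR), and that before Trav16d-dv11, chr14:53047094-53047295, one of -0.34 (SE 0.13, adjusted p = 0.866, edgeR). Values of the 2 days overlapped at both.

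The partners of the receptors were measured at the windows in or within 2 kb of each gene. The TCR partners, the CD3 chains and the zeta chain Cd247, had 98 windows, led by Cd3d with 30.2 CPM and Cd247 with 72 windows, while Ptcra, which pairs with the beta chain in immature thymocytes only, had none. The 5 B cell receptor partners had 29 windows, among them Cd79a with up to 11.4 CPM and Vpreb1 with up to 23.7 CPM. Whether any of these windows belongs to a neighbouring gene was not checked. Of the recombinase genes, Rag1 had 1 window at 1.41 CPM and Rag2 had 7 of up to 9.92 CPM, while the 7 end-joining genes listed with them, which all cells use, reached 58.5 CPM at Prkdc. The architectural genes Ctcf and Rad21 had 18 windows of up to 53.5 CPM.

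None of the 98 TCR partner, 29 B cell receptor partner, 74 recombinase and end-joining and 18 Ctcf and Rad21 windows passed an adjusted p of 0.05 in any of the 5 fits by edgeR. Their smallest adjusted p was 0.387, in a TCR partner window over both days. On day 7 the log2 fold change was above 0 at 54 of 98 TCR partner windows and 14 of 29 B cell receptor partner windows. On day 3 these were 40 of 97 and 10 of 28, and the summed level of B cell receptor partners was 101.2 to 109 CPM in ROSA26-WT and 97.5 to 100.9 CPM in TIR1(F74G) mice, which did not overlap. On day 7 it was 102 to 104 against 95.8 to 100.8 CPM.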

How the data were processed

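ATAC-seq libraries of sorted Treg cells from 14 mice were analysed. Reads had been aligned by the authors (Bowtie2) and peaks called (MACS2), which they filtered for reproducibility, merged into 1 atlas and counted reads in windows around peak summits with featureCounts, and the deposited values are these unnormalized counts (mm10). The treatment of duplicates and of multiply aligned reads is not given in the sources used here. CPM (TMM) and log2 values were computed here from the deposited counts, and column totals were 5653289 to 20184487, which limits precision most for windows near 1 CPM.

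Windows whose mean count reached 10 were tested with edgeR 4.0.16 (quasi-likelihood, R 4.3.3), Benjamini-Hochberg over all windows, threshold 0.05. DESeq2 1.42.0 was an alternative. The code was tested on simulated data. Each mouse is 1 replicate. Segments came from RefSeq (GRCm38.p6), with strand from GENCODE vM39 by symbol for 663 of 665, and sequences by name from GENCODE vM39. A window within 500 bp of a gene end was found for 11693 of 21631 genes. The window bounds are printed as in the table, whose first base (0 or 1) is not given.

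Named windows were the 2 highest of each interval, the highest near each constant gene, those of smallest p in each direction (3 for genotype, 2 for day and interaction) and the 3 of largest SD. Windows named for a segment or stretch were chosen after their values were seen. The members, marker and partner lists were chosen with earlier results of these data known. Same-numbered mice of the 2 genotypes did not deviate together (correlations of -0.04 to 0.06), so the replicate number was not used as a block. Other alternatives were normalization, filter, mouse name prefix, locus extent, 1 window per overlapping run, pseudocount and leaving out each mouse. Results at a few genes are not reported here.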

Additional observations from a re-analysis of the deposited data

Results flagged for a closer look

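In groups of 4 mice, a mouse was singled out when its gap to the nearest other, divided by the range of the group, was above Dixon's 95% critical value. Of 222 groups tested, 11 had such a mouse (4.95%), and chance flags about 1 in 20 groups.

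Among ROSA26-WT mice of day 3, replicate 1 was lowest in the Igh sum with 947 CPM and in the sum of the Ig loci with 1120 CPM, and replicate 3 was lowest in Trg windows inside other genes with 82.4 CPM. Replicate 4 was highest at the Trac window chr14:54222445-54222646 with 21.1 CPM. Replicate 3 was also lowest in the sum of the B cell receptor partners with 101.2 CPM.

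Among TIR1(F74G) mice of day 3, replicate 2 was lowest in the Igh sum with 980.3 CPM, in the Igh sum within the span of the segments with 791 CPM and in the gamma delta T cell markers with 80.9 CPM. The same mouse was highest in Tra/Trd windows inside other genes with 46.7 CPM. Replicate 4 was highest at chr6:41552977-41553178 in Trb with 5.71 CPM. Replicate 1, the shallowest library, was lowest at chr13:19300581-19300782 in Trg with 0.180 CPM.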

How the results depend on the processing

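In each of the 5 fits 0 members passed the adjusted threshold under every alternative run, including DESeq2, other normalizations and filters, the mouse name prefix as a term and each mouse left out (0 to 0 called). DESeq2 gave an adjusted p for 57 members over both days and 571 between days. No named window changed direction. With the replicate block, 0 members passed, while calls over all windows went from 11 to 52 on day 7, from 0 to 4 on day 3 and from 27 to 14 over both days. With a mean count of at least 50, 6 of 45 promoter-side TCR windows were higher on day 7, and so were 16 of 85 Tra/Trd windows, and the cause of these lower shares was not tested. For the promoter-side windows leaving out each mouse gave 19 to 28 of 84. For Tra/Trd it gave 105 to 189, and 189 of 371, without ROSA26-WT replicate 3, turned the direction, while all TCR windows gave 199 to 287. On day 3 Igk windows above 0 numbered 64 to 74 with a mouse left out, 70 of 82 with loess offsets and 7 of 10 at a mean count of at least 50. The log2 ratio of TCR to Ig sums within the spans was 0.70 (day 3) and 0.82 (day 7) in ROSA26-WT mice, against 0.55 and 0.70 in TIR1(F74G) mice. For windows within 2 kb of a segment it was 0.95 and 1.12 in ROSA26-WT mice, against 0.84 and 1.01 in TIR1(F74G) mice. With 1 window per overlapping run it was 0.52 in TIR1(F74G) mice of day 7. The counts of promoter-side, Tra/Trd, TCR and Igk windows and the ratio within the spans were chosen after seeing the data. These ratios moved because other windows were summed. The median SD was 0.381 with a pseudocount of 0.1 and 0.226 at a mean count of at least 50. With 3 or 4 mice a group and medians near 1.5 CPM, small differences at single windows were not detectable.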

Other observations

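Within Igh, a pair of overlapping windows lay between segments, 12284 bp from Ighv12-3 for the higher of them. This window, chr12:114379003-114379204, measured 8.66, 10.4, 13.2 and 12.6 CPM in ROSA26-WT and 12.6, 15.6, 12.5 and 14.2 CPM in TIR1(F74G) mice of day 3, and 10.1, 12.9 and 10.95 against 13.96, 13.7 and 14.3 CPM on day 7. The genotypes overlapped on day 3 and not on day 7. Of all windows 11.8% did not overlap on day 7 (5.81% higher in TIR1(F74G) mice), and no Igh window passed the adjusted threshold. This window was chosen after its values were seen.

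The Trav13 family differed from the other large Trav families in where its windows lay. Of its 7 segments with a window, 5 had the highest one within 150 bp of the 3′ end, against 2 of 9 in Trav6, 0 of 8 in Trav7 and 0 of 5 in each of Trav9, Trav14 and Trav15. This is a description over few segments and has no test.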
